A study of Mus musculus with 8 samples.

Results

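Blood vessels of the sciatic nerve were followed through 33 genes that mark their cells, all of which were found among the 55487 genes of the table. They were chosen by symbol: 22 are typical of endothelial cells, which line the vessel, and 11 of mural cells, the pericytes and smooth muscle cells around it. In a nerve, the endothelium of the endoneurial vessels is sealed by tight junctions and fitted with transporters, and with the perineurium it forms the blood-nerve barrier. Pericytes share the endothelial basement membrane and are recruited through platelet-derived growth factor receptor beta, and smooth muscle cells give the larger vessels their tone. Vessel growth is steered by vascular endothelial growth factor (VEGF) from the surrounding tissue, which binds receptor kinases on endothelial cells.

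At postnatal day 6, poly(A) RNA of the whole sciatic nerve was sequenced. There were 4 libraries of CNP-Cdk7cKO nerves (CNPcre/+ Cdk7lox/lox), in which Cre recombinase at 1 Cnp allele removes Cdk7, a kinase of the transcription machinery, and 4 of Ctrl nerves (CNP+/+ Cdk7lox/lox). Both groups carried 2 floxed Cdk7 alleles, and only CNP-Cdk7cKO animals had an altered Cnp allele. Cnp is a gene of Schwann cells and oligodendrocytes, and the Cre is thus not directed at vessel cells. Recombination by cell type was not measured. Nothing states that the libraries stem from different animals, and the p-values therefore refer to the spread among these 8 libraries, which may be technical.

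Libraries held 18911405 to 20486866 estimated counts in CNP-Cdk7cKO and 16897231 to 21527886 in Ctrl. Cdk7 averaged 11.6 ± 1.35 CPM in CNP-Cdk7cKO and 21.5 ± 0.70 CPM in Ctrl (SD, n = 4 each), where CPM is a gene's count scaled to a common library size by TMM. Cnp itself averaged 1389 ± 61.6 CPM in CNP-Cdk7cKO and 3134 ± 137 CPM in Ctrl. Loss of Cdk7 and the altered Cnp allele cannot be told apart in the differences below. The 8 Schwann cell markers summed to 84159 to 93321 CPM in CNP-Cdk7cKO and 113878 to 127859 CPM in Ctrl, and the vessel markers Cdh5 and Rgs5 were present in all 8 libraries. Xist, the RNA of the silenced X chromosome in females, measured 281 to 331 CPM in the 4 CNP-Cdk7cKO libraries and 305 CPM in Ctrl 1, but at most 0.10 CPM in Ctrl 2, 3 and 4. By this count 4 CNP-Cdk7cKO libraries and 1 Ctrl library were female and 3 Ctrl libraries were male, so sex and genotype are largely confounded. The 12 skeletal muscle markers summed to 97.7 to 576 CPM in CNP-Cdk7cKO and 521 to 5054 CPM in Ctrl, with the highest sum in Ctrl 4. Their part in the differences below was not tested beyond the fits among female libraries and those with 1 of 3 covariates: Xist, muscle markers, or a surrogate variable estimated from all genes.

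Promoter sequences are shown for the genes with a difference described below whose windows could be read (Mfsd2a and Cspg4). Sequences are also shown for a pair of endothelial receptor genes whose windows hold AGGAAG, a motif described next (Flt1 and Eng). RefSeq (GRCm38.p6) gave a window for 22 of the 33 genes, 10 had none, and 1 was not read. Each line holds up to 250 bases that end just before the first transcribed base, 5′ to 3′ on the gene's own strand. Capitals mark AGGAAG, which holds the GGAA core bound by ETS factors such as Erg, and the E-box CANNTG, on either strand. GGAA outside AGGAAG was not searched for and is not marked. No 2 of the marked matches overlap in the sequences shown.
Mfsd2a, chr4:122961189-122961438, minus strand: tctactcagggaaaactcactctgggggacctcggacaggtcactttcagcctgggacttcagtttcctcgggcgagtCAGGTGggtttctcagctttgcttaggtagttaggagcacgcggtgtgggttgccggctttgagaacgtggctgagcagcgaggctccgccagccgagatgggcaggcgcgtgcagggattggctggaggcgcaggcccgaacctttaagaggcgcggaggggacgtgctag
Cspg4, chr9:56864854-56865032, plus strand: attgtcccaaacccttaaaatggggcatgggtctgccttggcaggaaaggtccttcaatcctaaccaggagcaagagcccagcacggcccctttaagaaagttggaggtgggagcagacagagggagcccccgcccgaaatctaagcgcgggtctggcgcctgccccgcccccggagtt
Flt1, chr5:147726012-147726261, minus strand: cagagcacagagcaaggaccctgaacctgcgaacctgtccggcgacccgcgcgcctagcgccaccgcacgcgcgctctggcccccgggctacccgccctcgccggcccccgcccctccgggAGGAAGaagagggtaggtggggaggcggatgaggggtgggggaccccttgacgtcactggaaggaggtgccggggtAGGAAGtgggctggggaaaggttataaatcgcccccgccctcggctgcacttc
Eng, chr2:32646345-32646594, plus strand: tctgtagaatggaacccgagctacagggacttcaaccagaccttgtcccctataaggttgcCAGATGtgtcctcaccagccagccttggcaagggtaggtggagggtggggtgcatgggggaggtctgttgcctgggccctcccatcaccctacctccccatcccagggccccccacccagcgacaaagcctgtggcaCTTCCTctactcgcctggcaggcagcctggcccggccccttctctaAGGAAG

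AGGAAG was present 2 times each in the Flt1 and Eng sequences, which were chosen for holding it. Neither the Mfsd2a nor the Cspg4 sequence held AGGAAG. Across the first listed window of each gene, it was found in 8 of 14 endothelial windows (57.1%) and in 0 of 8 mural windows, set beside 29.5% of the 32851 RefSeq windows of the same length. The E-box was found in 16 of 22 windows (72.7%), against 66.2% of all windows. The CArG box, bound by serum response factor in smooth muscle genes, was found in 0 of the 22 windows and in 1.47% of all windows. These are matches of letters only.

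Of the 33 vessel genes, 3 differed between CNP-Cdk7cKO and Ctrl nerves and 30 did not pass the test. The lipid transporter gene Mfsd2a and the pericyte receptor gene Pdgfrb were lower in CNP-Cdk7cKO nerves, and the proteoglycan gene Cspg4 was higher. A call means a Benjamini-Hochberg adjusted p under 0.05 by edgeR's quasi-likelihood test over all 15056 genes tested. Of all those genes 11.7% were called (5.07% higher and 6.6% lower), and the 33 vessel genes gave 1 call higher and 2 lower, no more than that background. Of the 33, 6 had an unadjusted p under 0.05 (26.1% of all genes tested) and 12 had a fold change above 1 (50.7% of all genes tested). The median log2 fold change (CNP-Cdk7cKO over Ctrl) was -0.05 over the 33 vessel genes, -0.05 over the 22 endothelial genes and -0.03 over the 11 mural genes, against 0.00 over all genes tested. All 33 genes passed the filter on low counts. For 28 of the 30 genes without a call, the 95% interval of the fold change lay within 1.5-fold either way. In the nerve as a whole, fewer cells of a type and less RNA per cell cannot be told apart.

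**Figure D1:**
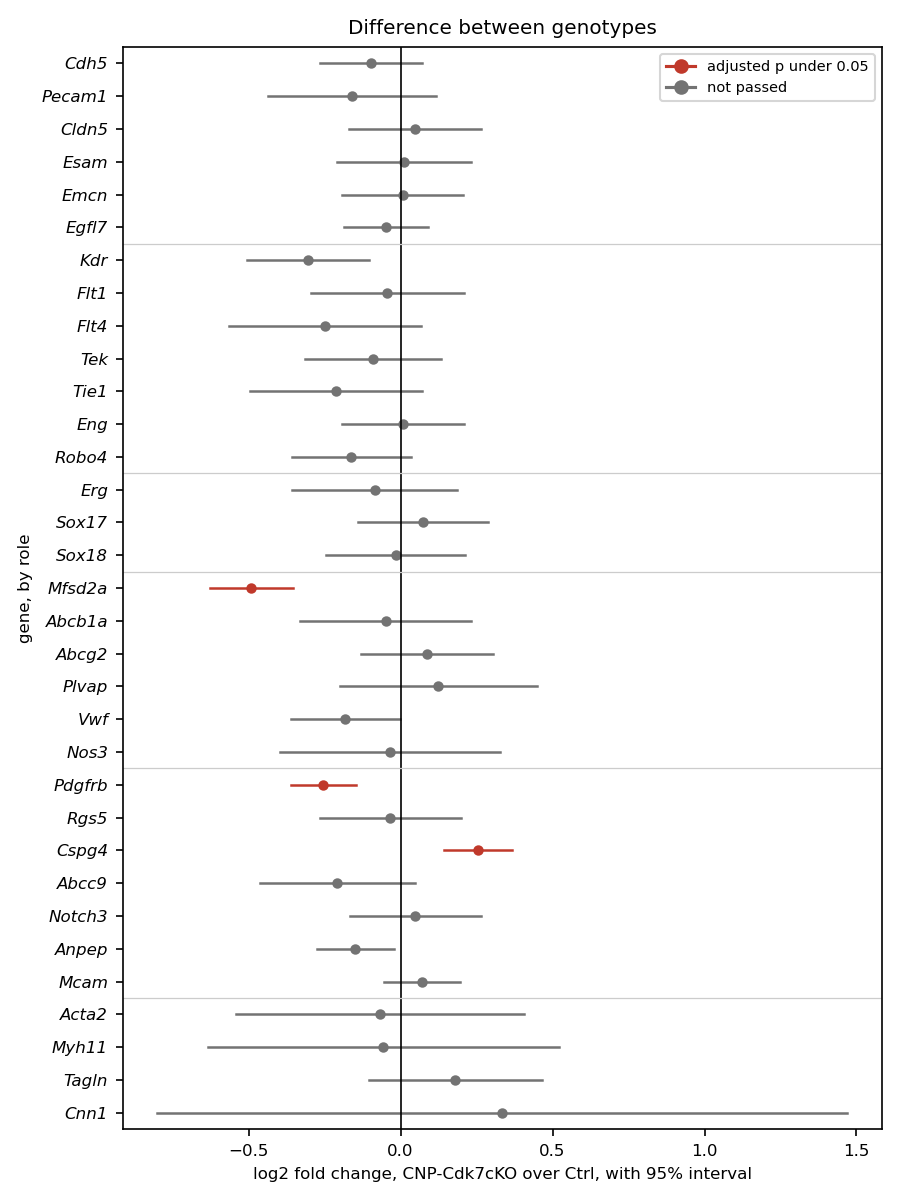
Log2 fold change of each vessel gene (CNP-Cdk7cKO over Ctrl, horizontal axis) with its 95% interval, genes grouped by role down the page. Red marks an adjusted p under 0.05. The intervals of Mfsd2a and Pdgfrb lie below 0 and that of Cspg4 above it. Those of Kdr, Anpep and Vwf also lie below 0, though these genes did not pass, and Cnn1 has the widest interval.

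Endothelial identity and junction genes gave 0 calls among 6, also at an unadjusted p under 0.05. Cdh5 encodes VE-cadherin, the adhesion molecule of endothelial contacts. It measured 121, 119, 129.7 and 121 CPM in CNP-Cdk7cKO 1 to 4, against 113, 144, 145 and 123 CPM in Ctrl 1 to 4. The Ctrl libraries spanned a wider range than the CNP-Cdk7cKO libraries, which lay inside it, and the fold change was 0.935 (95% interval 0.833 to 1.05). Pecam1, another contact molecule, measured 53.1, 51.4, 68.1 and 64.3 CPM in CNP-Cdk7cKO and 52.9, 70.2, 80.1 and 61.4 CPM in Ctrl. In Pecam1 the difference between libraries of 1 group exceeded the difference between the groups (log2 fold change -0.16 ± 0.13 SE, edgeR adjusted p = 0.459). Claudin-5, the tight junction protein that seals barrier endothelium, is the product of Cldn5, which averaged 26.5 ± 3.36 CPM in CNP-Cdk7cKO and 25.6 ± 2.75 CPM in Ctrl. Esam, which codes for an adhesion molecule of endothelial junctions, had a fold change of 1.01 (0.866 to 1.18). Emcn, for the endothelial sialomucin endomucin, also had 1.01 (0.876 to 1.15), and Egfl7, for a secreted endothelial factor, had 0.968 (0.879 to 1.07).

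Receptor genes of the endothelium gave 0 calls among 7, and 6 of the 7 had fold changes below 1. The main VEGF receptor gene, Kdr, measured 25.9, 24.2, 29.8 and 27.4 CPM in CNP-Cdk7cKO libraries and 30.0, 36.5, 36.7 and 29.2 CPM in Ctrl libraries. Only CNP-Cdk7cKO 3 reached into the Ctrl range, and the log2 fold change was -0.30 ± 0.09 SE (edgeR adjusted p = 0.0548). Kdr was just short of the threshold, and it passed in 7 of 19 alternative fits, among them DESeq2 and limma-voom (adjusted p = 0.0214 and 0.0251) and the fits without CNP-Cdk7cKO 3, Ctrl 1 or Ctrl 4 (adjusted p = 0.0442, 0.0491 and 0.0334). With Xist as a covariate its value was -0.16 (adjusted p = 0.639), and among female libraries -0.16 (adjusted p = 0.659). Flt1, whose product binds VEGF without strong signalling, averaged 18.4 ± 1.18 CPM in CNP-Cdk7cKO and 18.9 ± 3.49 CPM in Ctrl. Flt4, the receptor gene for the lymphatic growth factor VEGF-C, averaged 4.86 ± 0.71 CPM in CNP-Cdk7cKO and 5.77 ± 0.67 CPM in Ctrl (log2 fold change -0.25 ± 0.14 SE, edgeR adjusted p = 0.305). Tek, the angiopoietin receptor gene, had a fold change of 0.938 (0.804 to 1.096), and its partner Tie1 had 0.862 (0.709 to 1.05). Endoglin (Eng), a co-receptor of the transforming growth factor beta family, had 1.01 (0.875 to 1.16). Robo4, a guidance receptor gene that stabilises vessels, had 0.894 (0.781 to 1.02).

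Endothelial transcription factor genes gave 0 calls among 3, also at an unadjusted p under 0.05. Erg, an ETS factor that maintains endothelial identity, averaged 10.6 ± 1.68 CPM in CNP-Cdk7cKO and 11.2 ± 1.06 CPM in Ctrl. Sox17, which is linked to arterial fate, averaged 12.6 ± 0.40 CPM in CNP-Cdk7cKO and 11.9 ± 1.49 CPM in Ctrl. Sox18, active in early vessel and lymphatic growth, averaged 17.3 ± 0.92 CPM in CNP-Cdk7cKO and 17.4 ± 2.68 CPM in Ctrl. The log2 fold changes of these 3 genes ran from -0.09 to 0.07.

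Among 6 genes for barrier transport and endothelial products, Mfsd2a fell and the other 5 did not pass. Mfsd2a (chr4:122946850-122961188, minus strand, GRCm38) encodes a transporter of lysophosphatidylcholine that carries docosahexaenoic acid, and in mouse brain endothelium it also restrains vesicular transport across the barrier. It measured 60.7, 56.4, 63.3 and 62.3 CPM in CNP-Cdk7cKO libraries, against 94.5, 86.0, 81.6 and 79.1 CPM in Ctrl libraries. Every CNP-Cdk7cKO value lay below every Ctrl value, a gap larger than the spread within either group. In Ctrl 1 to 4 the Schwann cell marker sums ran in the same order (127859, 115427, 113890 and 113878 CPM), while Cdh5 was lowest in Ctrl 1. In CNP-Cdk7cKO 1 to 4 those sums ran in another order (84159, 87848, 86360 and 93321 CPM). Which cells carry the Mfsd2a RNA of the nerve was not tested. The fold change of Mfsd2a was 0.712 (0.647 to 0.783), or -0.49 ± 0.06 SE on the log2 scale (edgeR adjusted p = 0.000869). This call was kept in all 19 alternative fits, with log2 values from -0.67 to -0.44. It was -0.64 with Xist as a covariate (adjusted p = 0.00509), -0.67 with the muscle covariate (adjusted p = 0.00237) and -0.64 among female libraries (adjusted p = 0.0181), a fit that has a single control, Ctrl 1, and takes the spread from CNP-Cdk7cKO.

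The remaining transport and product genes showed no such separation. Abcb1a, for the efflux pump P-glycoprotein, measured 7.09, 6.96, 6.73 and 5.94 CPM in CNP-Cdk7cKO and 8.45, 6.72, 6.05 and 6.49 CPM in Ctrl. Its ranges overlapped, with a fold change of 0.967 (0.796 to 1.17). Abcg2, another drug efflux pump gene, had 1.06 (0.913 to 1.23). Plvap, for the diaphragm protein of permeable, fenestrated endothelium, averaged 19.1 ± 2.13 CPM in CNP-Cdk7cKO and 17.5 ± 4.01 CPM in Ctrl, a fold change of 1.09 (0.871 to 1.36). The gene of von Willebrand factor, Vwf, which endothelial cells store and secrete, measured 51.2 to 59.95 CPM in CNP-Cdk7cKO and 56.1 to 72.2 CPM in Ctrl (log2 fold change -0.18 ± 0.08 SE, edgeR adjusted p = 0.189). Nos3, the endothelial nitric oxide synthase gene, averaged 10.8 ± 1.91 CPM in CNP-Cdk7cKO and 11.01 ± 2.26 CPM in Ctrl.

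**Figure D2:**
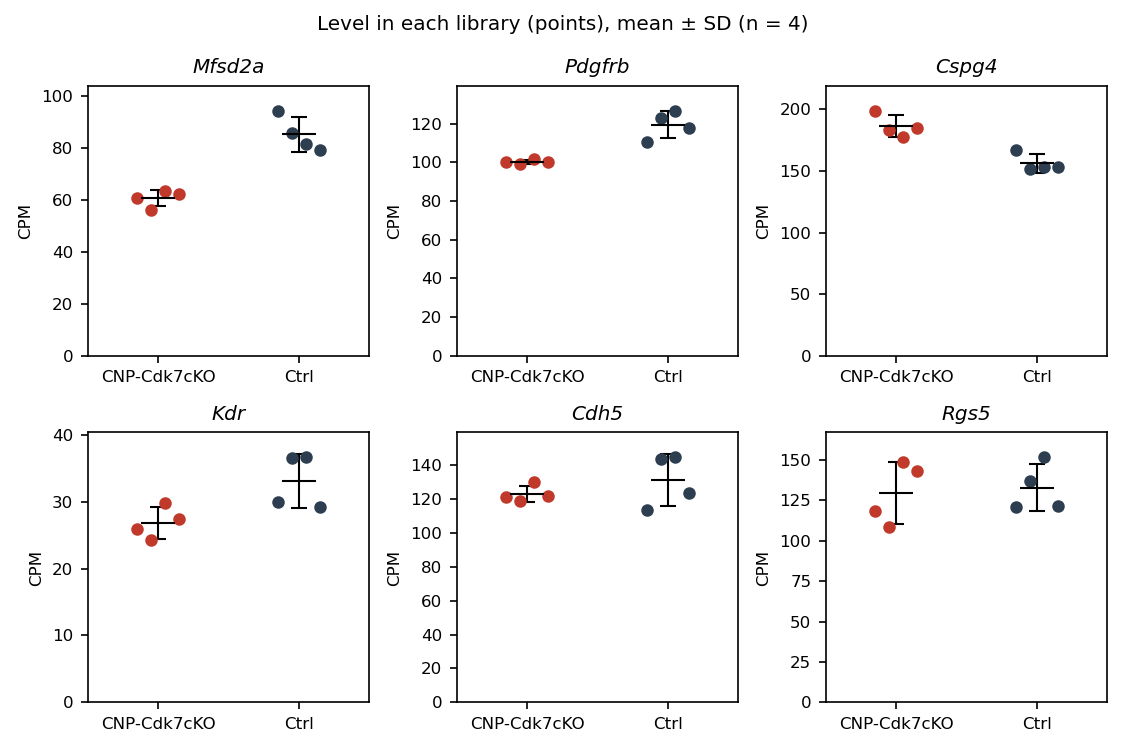
CPM (vertical axes, from 0) in each CNP-Cdk7cKO and Ctrl library for 6 vessel genes, with bars for mean ± SD (n = 4). The groups are separate in Mfsd2a, Pdgfrb and Cspg4 and overlap in Kdr, Cdh5 and Rgs5.

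Pericyte and shared mural genes moved in different directions, with 1 rise, 1 fall and 5 genes that did not pass. Pdgfrb (chr18:61045150-61085061, plus strand, GRCm38) encodes the receptor through which pericytes are recruited and is also expressed by fibroblasts. It measured 99.9, 99.0, 102 and 99.95 CPM in CNP-Cdk7cKO libraries, against 111, 123, 127 and 118 CPM in Ctrl libraries. The SD among CNP-Cdk7cKO libraries was 1.1% of their mean, and all lay below the Ctrl range (fold change 0.838, 95% interval 0.778 to 0.902; log2 -0.25 ± 0.05 SE, edgeR adjusted p = 0.00735). Cspg4 (chr9:56865033-56899870, plus strand, GRCm38) encodes the NG2 proteoglycan, a pericyte surface marker that other cells of the nerve can carry too. It measured 199, 184, 178 and 185 CPM in CNP-Cdk7cKO libraries, against 167, 151, 153 and 153 CPM in Ctrl libraries. Again the groups did not overlap, here with CNP-Cdk7cKO above Ctrl (fold change 1.19, 95% interval 1.105 to 1.29; log2 0.25 ± 0.05 SE, edgeR adjusted p = 0.00873).

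Both mural calls ended in the fits with Xist or muscle markers as a covariate. Over all genes, calls numbered 1757 without a covariate, 233 with Xist and 275 with the muscle covariate. The part of sex or muscle in the mural differences was not tested further. With Xist as a covariate Pdgfrb had a log2 fold change of -0.15 and Cspg4 0.16 (adjusted p = 0.345 and 0.348). With the muscle covariate the values were -0.25 and 0.23 (adjusted p = 0.175 and 0.240), and among female libraries they were -0.15 and 0.15 (adjusted p = 0.465 and 0.526). In Ctrl 1, the female control, Pdgfrb was the lowest and Cspg4 the highest of the 4 Ctrl libraries, and in both genes it was the Ctrl value nearest to CNP-Cdk7cKO. Of 11 fibroblast markers, 2 rose and 0 fell, with summed levels of 45596 to 51685 CPM in CNP-Cdk7cKO and 39760 to 45100 CPM in Ctrl. Pdgfra, the fibroblast receptor gene, rose (log2 fold change 0.19 ± 0.05 SE, edgeR adjusted p = 0.0188), the opposite direction to Pdgfrb. With each of the 3 covariates, 0 of the 11 fibroblast markers were called in either direction, Pdgfra included. Fibroblast markers with a rise numbered 1 without CNP-Cdk7cKO 2 or Ctrl 3, which left out Pdgfra, and 4 without CNP-Cdk7cKO 4; without Ctrl 1, 1 fell. The part of fibroblasts in the Pdgfrb difference was not tested.

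The pericyte marker Rgs5, a regulator of G protein signalling, measured 118, 109, 148 and 143 CPM in CNP-Cdk7cKO and 121, 137, 152 and 121 CPM in Ctrl. The 2 groups spanned nearly the same range, and the fold change was 0.977 (0.832 to 1.15). Notch3, the receptor gene for Notch ligands on mural cells, averaged 91.3 ± 8.62 CPM in CNP-Cdk7cKO and 88.2 ± 12.7 CPM in Ctrl. Abcc9, a potassium channel regulator of pericytes, averaged 19.3 ± 1.70 CPM in CNP-Cdk7cKO and 22.2 ± 3.80 CPM in Ctrl (fold change 0.865, 0.725 to 1.03). Anpep, the aminopeptidase gene of pericytes and fibroblasts, measured 54.3, 48.1, 55.2 and 55.1 CPM in CNP-Cdk7cKO and 56.7, 61.9, 60.6 and 56.5 CPM in Ctrl. Its groups did not overlap, yet the difference of -0.15 ± 0.06 SE on the log2 scale did not pass (edgeR adjusted p = 0.125). With Mfsd2a, Pdgfrb and Cspg4 this makes 4 of 33 genes whose groups did not overlap, against 18.8% of all genes tested; 1 was higher in CNP-Cdk7cKO (9.34% of all genes) and 3 were lower (9.51%). Mcam, an adhesion molecule gene of endothelial and mural cells, averaged 407 ± 27.6 CPM in CNP-Cdk7cKO and 388 ± 20.7 CPM in Ctrl (fold change 1.05, 0.962 to 1.14). Per kilobase of merged exon, Mcam had a mean level of 121 CPM in CNP-Cdk7cKO and 116 CPM in Ctrl, above Tagln (38.1 and 33.6), Rgs5 (28.5 and 29.2) and Cdh5 (29.2 and 31.2).

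Contractile smooth muscle genes gave 0 calls among 4, and Acta2, Myh11 and Cnn1 had the largest SD relative to the mean of the 33 genes in both genotypes. Acta2, for smooth muscle actin, measured 47.1, 46.6, 72.0 and 84.2 CPM in CNP-Cdk7cKO libraries and 42.5, 74.9, 76.9 and 67.3 CPM in Ctrl libraries. CNP-Cdk7cKO 1, CNP-Cdk7cKO 2 and Ctrl 1 were low and the other libraries high, so the ranges nearly coincided. Myh11, the smooth muscle myosin heavy chain gene, was low in the same libraries and in Ctrl 4, with 13.0, 10.3, 20.5 and 22.3 CPM in CNP-Cdk7cKO and 12.1, 21.7, 21.8 and 12.8 CPM in Ctrl. The SD of Acta2 and Myh11 was 29.9% and 34.8% of the mean in CNP-Cdk7cKO and 24.2% and 31.4% in Ctrl. Intervals were accordingly wide: the fold change was 0.953 for Acta2 (0.687 to 1.32) and 0.962 for Myh11 (0.645 to 1.43). Tagln, for the actin-binding protein transgelin, varied less in CNP-Cdk7cKO and measured 71.8, 86.1, 66.8 and 78.1 CPM in CNP-Cdk7cKO and 54.2, 85.6, 69.0 and 58.3 CPM in Ctrl. Calponin (Cnn1) was scarce, with 2 to 33 counts a library and a fold change of 1.26 whose interval ran from 0.574 to 2.77. A smaller change in Cnn1 was not detectable at this depth.

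Vessel genes rose and dipped together from library to library, in both genotypes. The median deviation of the 22 endothelial genes from their Ctrl mean, on the log2 scale, was -0.11, -0.15, 0.03 and 0.04 in CNP-Cdk7cKO 1 to 4 and -0.14, 0.09, 0.18 and -0.10 in Ctrl 1 to 4. The 7 pericyte and shared mural genes gave -0.12, -0.23, 0.17 and 0.12 in CNP-Cdk7cKO and -0.11, 0.05, 0.10 and -0.03 in Ctrl. The 4 contractile genes had the same sign as the other groups in each library, with a larger deviation in every library except Ctrl 4, at -0.12, -0.44, 0.24 and 0.41 in CNP-Cdk7cKO and -0.50, 0.38, 0.29 and -0.05 in Ctrl. CNP-Cdk7cKO 1 and 2 were both below CNP-Cdk7cKO 3 and 4 in 25 of the 33 vessel genes (75.8%), compared with 23.4% of all genes tested. Ctrl 3 was the highest Ctrl library in 22 of 33 (66.7%, against 22.7% of all genes tested). Ctrl 1 was the lowest Ctrl library in 19 of 33 (57.6%, against 26.3%), and in 9 of the 11 mural genes. These orders were noticed in the values and carry no test.

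**Figure D3:**
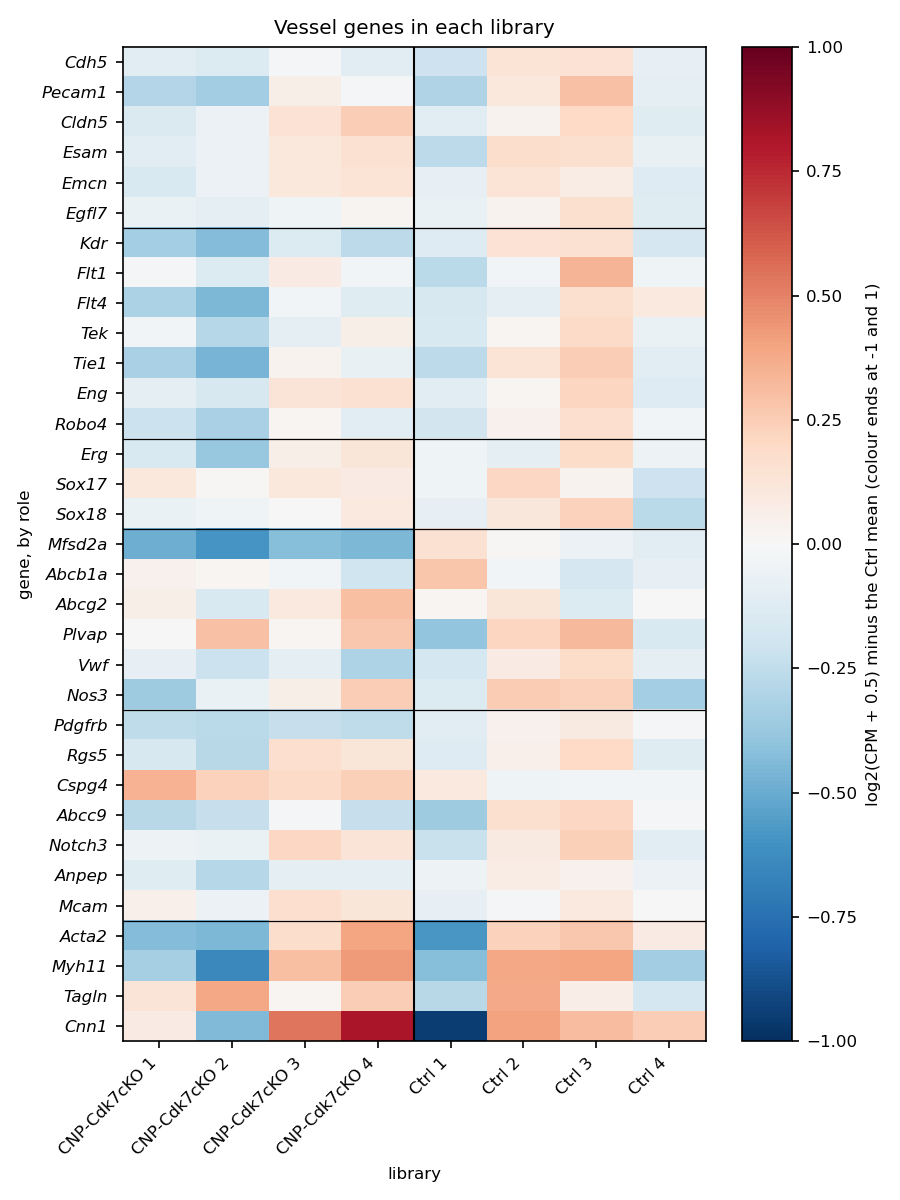
Deviation of each vessel gene (rows, by role) in each library (columns, CNP-Cdk7cKO left and Ctrl right) from its Ctrl mean, as log2(CPM + 0.5). CNP-Cdk7cKO 1 and 2 and Ctrl 1 are mostly blue and Ctrl 3 mostly red, while the Mfsd2a and Pdgfrb rows are blue in all CNP-Cdk7cKO libraries.

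**Figure D4:**
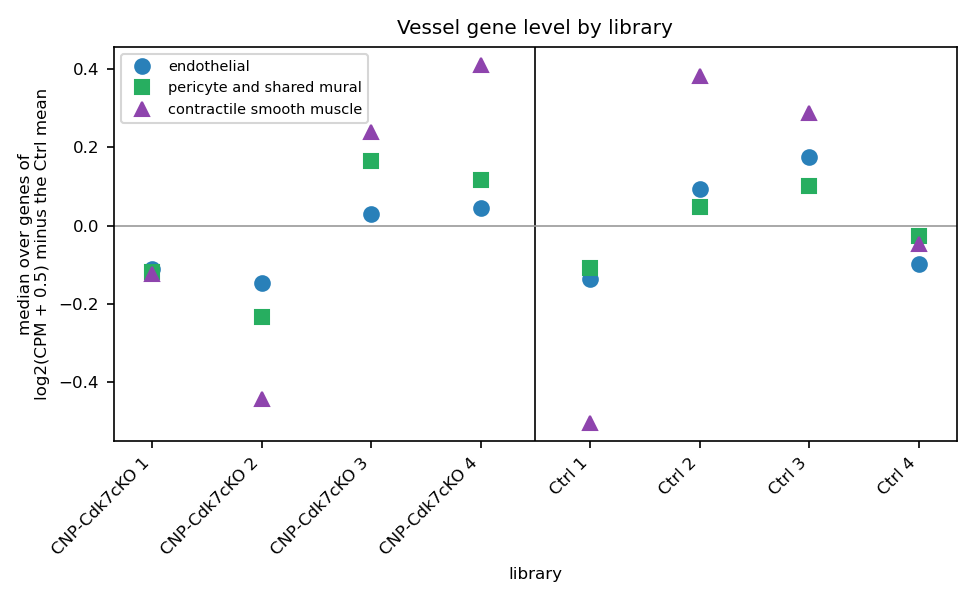
Median deviation (log2, vertical axis) of endothelial, pericyte and contractile genes in each library, CNP-Cdk7cKO left of the line and Ctrl right of it. The 3 points of a library lie on the same side of 0 in each of the 8 libraries, and contractile genes reach from -0.50 in Ctrl 1 to 0.41 in CNP-Cdk7cKO 4.

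The medians moved with the choice of controls. With Xist as a covariate the median log2 fold change was 0.11 over the 33 genes, 0.07 over the endothelial receptors and 0.52 over the contractile genes, where without it the values were -0.05, -0.16 and 0.06. In the female libraries alone, where Ctrl 1 is the only control, the medians were 0.11, 0.07 and 0.52. With the muscle covariate they were -0.19, -0.27 and 0.06, and with the surrogate variable -0.16, -0.23 and 0.13. The sex of Ctrl 1 and its other properties cannot be told apart.

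Other markers of the same cells were also measured. Of 20 further endothelial markers 1 rose and 0 fell, and the median of their log2 fold changes was -0.12. The rise was in Ramp2, which encodes a partner of the adrenomedullin receptor and measured 46.7, 49.3, 49.1 and 51.8 CPM in CNP-Cdk7cKO against 42.4, 38.9, 41.8 and 37.4 CPM in Ctrl. The groups of Ramp2 did not overlap (log2 fold change 0.30 ± 0.06 SE, edgeR adjusted p = 0.00727), but the call ended with each of the 3 covariates and among female libraries, where 0 of the 20 were called. Without CNP-Cdk7cKO 3, 1 of them fell. Summed, the further endothelial markers measured 597 to 664 CPM in CNP-Cdk7cKO and 589 to 705 CPM in Ctrl. Of 19 further mural markers tested, 1 rose and 3 fell, with a median of 0.01; without CNP-Cdk7cKO 1 or 3, 1 fell, and without Ctrl 1, 2 rose. Foxs1, a forkhead factor gene of pericytes, rose to 39.1 ± 4.12 CPM in CNP-Cdk7cKO, against 26.8 ± 1.67 CPM in Ctrl (log2 fold change 0.55 ± 0.08 SE, edgeR adjusted p = 0.00184). Desmin (Des), synaptopodin-2 (Synpo2) and smoothelin (Smtn) fell by 2.35, 1.95 and 0.14 on the log2 scale, and striated muscle also expresses Des and Synpo2. Des measured 199.8 CPM in Ctrl 4, where the muscle sum was highest, and 26.99 CPM in Ctrl 1. With each of the 3 covariates, and among female libraries, 0 of the 19 mural markers were called in either direction, Foxs1 included.

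Signals that reach vessel cells were measured in the same nerves. Of 25 ligand genes tested, 1 rose and 1 fell, with a median log2 fold change of 0.03. Vegfa, the ligand of Kdr, measured 25.7, 27.7, 27.6 and 27.8 CPM in CNP-Cdk7cKO, against 32.8, 39.2, 40.8 and 31.2 CPM in Ctrl. All CNP-Cdk7cKO libraries were below the Ctrl range, and the difference of -0.41 ± 0.08 SE on the log2 scale passed (edgeR adjusted p = 0.0115). Pdgfd, a ligand of the receptor that Pdgfrb encodes, rose to 6.74 ± 0.77 CPM in CNP-Cdk7cKO, against 3.99 ± 0.28 CPM in Ctrl (log2 fold change 0.76 ± 0.13 SE, edgeR adjusted p = 0.00388). With Xist as a covariate Vegfa had -0.28 and Pdgfd 0.75, and neither passed (adjusted p = 0.355 and 0.140). Without Ctrl 3, 2 ligand genes rose. Among 24 further receptors and targets of Notch or Wnt signalling, 4 rose and 1 fell, with a median of -0.02. Tcf7, a transcription factor gene of the Wnt pathway, rose to 24.9 ± 3.00 CPM in CNP-Cdk7cKO, against 14.2 ± 1.58 CPM in Ctrl (log2 fold change 0.81 ± 0.10 SE, edgeR adjusted p = 0.000869). The Notch target Hes1 (0.32), Pdgfra (0.19) and the Wnt co-receptor gene Lrp5 (0.19, named after its value was seen) also rose, while the VEGF co-receptor gene Nrp2 fell by 0.27. Without Ctrl 3, 1 gene of this list rose, and 2 did without Ctrl 1 or any 1 CNP-Cdk7cKO library; without Ctrl 1, 2 fell. With the muscle covariate and among female libraries 0 genes of this list were called, and with Xist 1 rose and 0 fell.

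**Figure D5:**
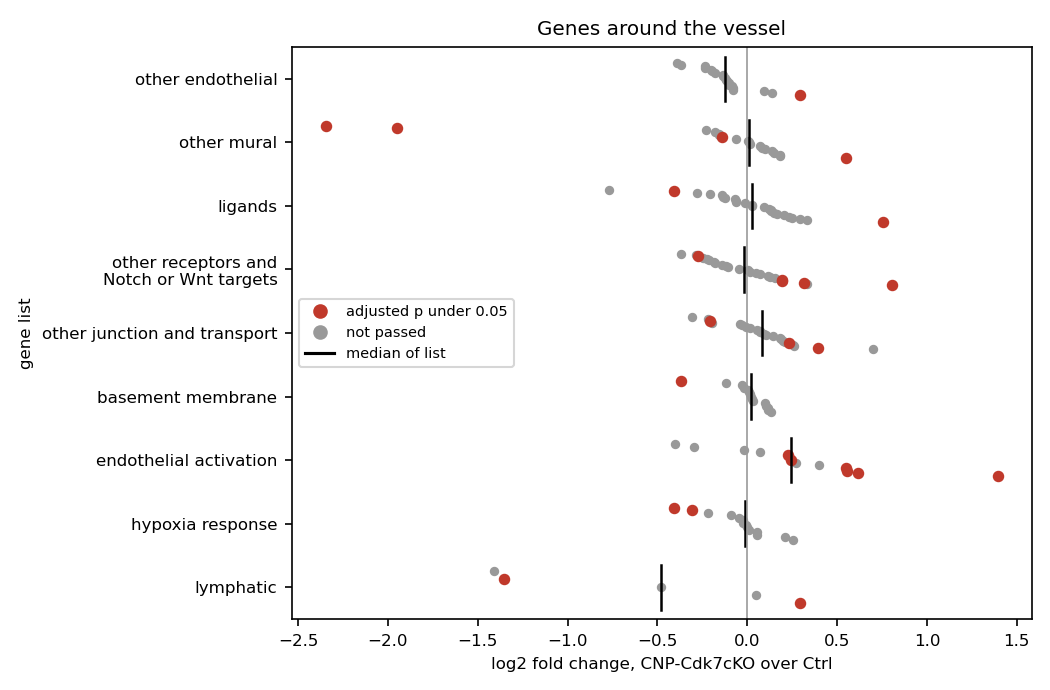
Log2 fold change (CNP-Cdk7cKO over Ctrl, horizontal axis) of each gene tested in 9 further lists, with the median of each list as a black line. Called genes are red; 6 of them are in the endothelial activation list, all to the right of 0, and the 2 points far to the left in the mural list are Des and Synpo2.

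Barrier genes beyond the members gave 2 rises among 24 tested, with a median log2 fold change of 0.08. Slc7a5, for the large neutral amino acid transporter LAT1, measured 77.6, 81.2, 75.9 and 86.3 CPM in CNP-Cdk7cKO and 63.8, 61.8, 59.2 and 59.6 CPM in Ctrl, without overlap (0.39 ± 0.05 SE, edgeR adjusted p = 0.00107). Jam2, a junctional adhesion molecule gene, rose by 0.23. The rises numbered 1 without CNP-Cdk7cKO 1 or 2 or Ctrl 1 or 2, and 0 genes of this list were called with Xist as a covariate. The perineurium, the other barrier of the nerve, was followed through 7 markers, of which 0 were called; the most abundant were Itgb4, an integrin gene (log2 fold change -0.27, edgeR adjusted p = 0.0601), and Sfrp4, for a secreted Wnt modulator (0.14). In the basement membrane list 1 of 15 fell and 0 rose, and 1 rose without CNP-Cdk7cKO 3 or Ctrl 1. The gene that fell was Sparcl1, whose product hevin is a matricellular protein. It measured 294 ± 21.7 CPM in CNP-Cdk7cKO and 381 ± 20.4 CPM in Ctrl (-0.37 ± 0.06 SE, edgeR adjusted p = 0.0028). Sparcl1 was the 1 gene of that list that stayed called with Xist as a covariate (adjusted p = 0.0313), and it was not called among female libraries (adjusted p = 0.0702). Of 14 hypoxia genes tested 2 fell and 0 rose, Vegfa and Mxi1 (-0.31 ± 0.05 SE, edgeR adjusted p = 0.00236), with a list median of -0.02. Neither was called with any of the 3 covariates or among female libraries.

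Several genes of the activated endothelium rose. Of 13 tested, 6 rose, 0 fell and 7 did not pass, with a median log2 fold change of 0.24. Among all genes 5.07% were called higher. The list was drawn up with earlier results already known, so its count beside that share is no test. Vcam1, a leukocyte adhesion molecule gene, measured 13.8, 16.4, 13.6 and 13.5 CPM in CNP-Cdk7cKO and 9.85, 9.31, 8.54 and 9.70 CPM in Ctrl (0.62 ± 0.09 SE, edgeR adjusted p = 0.00242). Icam1, another such gene, rose to 17.1 ± 2.36 CPM in CNP-Cdk7cKO, against 11.7 ± 1.13 CPM in Ctrl (0.55 ± 0.11 SE, edgeR adjusted p = 0.00909). The chemokine gene Cxcl1 (1.40) and Plat, for tissue plasminogen activator (0.23), rose as well, as did Ccl2 (0.55) and the thrombomodulin gene Thbd (0.24), both named after their values were seen. Macrophages and Schwann cells also express several of these genes, and 5 of 10 macrophage markers rose, with sums of 487 to 584 CPM in CNP-Cdk7cKO and 405 to 503 CPM in Ctrl. That count was 1 without CNP-Cdk7cKO 3 or 4 or Ctrl 1, 2 or 3, and 3 without CNP-Cdk7cKO 2. The part of macrophages was not tested. The count of 6 went to 2 without CNP-Cdk7cKO 3 or Ctrl 3, to 3 without Ctrl 2, to 1 with Xist as a covariate and to 0 in the female libraries alone.

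Lymphatic vessels were sparsely represented. Prox1, the factor that sets lymphatic identity, was at 0.462 ± 0.185 CPM in CNP-Cdk7cKO and 1.18 ± 0.48 CPM in Ctrl, and fell by 1.35 on the log2 scale (edgeR adjusted p = 0.0371). Skeletal muscle progenitors also express Prox1, and its highest value, 1.85 CPM, was in Ctrl 4. Podoplanin (Pdpn), which fibroblasts also make, rose by 0.29, and the other 3 of 5 genes tested did not pass. Without CNP-Cdk7cKO 2 or Ctrl 3, Pdpn did not pass. Without CNP-Cdk7cKO 1, 2 or 4, or Ctrl 2, 3 or 4, no lymphatic marker fell. With each of the 3 covariates, 0 of the 5 lymphatic markers were called in either direction, Prox1 included.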

How the data were processed

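Poly(A) RNA from whole sciatic nerves was sequenced by the authors, 4 libraries a genotype, and the deposited table holds estimated counts per gene (3.88% of values are not whole within 0.01). Per the submitters' processing notes STAR, Salmon and GRCm38 were used; their versions and settings: not given in the sources used here. Counts were rounded to whole numbers, filtered with filterByExpr (10 counts, 15 in total), scaled by TMM and tested in edgeR (version 4.0.16, under R 4.3.3) by its quasi-likelihood method, with Benjamini-Hochberg adjustment over 15056 genes and a threshold of 0.05. Of 55487 IDs, 55141 had a symbol and 0 sample columns were left unused. Intervals are 95% t intervals from the fit and describe these libraries. The tests were also run on simulated data. Alternatives were other normalizations and filters, DESeq2 1.42.0, limma-voom (limma 3.58.1), a replicate block, covariates (muscle markers, Xist, a surrogate variable from sva 3.50.0), female libraries only, and each library left out. The vessel genes and all other lists were chosen with earlier results of these data known. All 33 vessel genes are named, and from each other list up to 4 called genes with the smallest p, or the 2 with the highest mean where none was called; the exceptions are marked where they stand. Promoter windows came from RefSeq, GRCm38.p6; gene coordinates are those of GENCODE M21. Some genes of the other lists are not reported here by name.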

Additional observations from a re-analysis of the deposited data

Results flagged for a closer look

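In 5 of the 66 groups of 4 libraries (33 vessel genes in 2 genotypes), 1 library stood far from the other 3 by Dixon's test, which chance flags in about 1 of 20 groups. Among CNP-Cdk7cKO libraries, Abcc9 was highest in CNP-Cdk7cKO 3 at 21.8 CPM, and Anpep was lowest in CNP-Cdk7cKO 2 at 48.1 CPM. Among Ctrl libraries, Erg was highest in Ctrl 3 at 12.8 CPM, Cspg4 was highest in Ctrl 1 at 167 CPM, and Cnn1 was lowest in Ctrl 1 at 0.122 CPM, which is 2 counts.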

How the results depend on the processing

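Mfsd2a kept its direction and call in all 19 alternatives, and no vessel gene with a call changed sign. With a covariate (muscle markers, then Xist, then a surrogate variable) or among female libraries, 0 vessel genes were called higher and 1 lower. Over all genes, calls higher then numbered 113, 73, 150 and 37 (763 otherwise) and calls lower 162, 160, 234 and 77 (994 otherwise). Leaving out 1 library gave 470 (without Ctrl 2) to 655 genes higher, 653 (without Ctrl 2) to 860 lower, 1 to 1 vessel genes higher and 2 to 3 lower; without Ctrl 3, 500 genes were higher. The replicate block gave 682 genes higher and 926 lower, and 1 vessel gene higher and 3 lower, Kdr being the third. The labels do not say that shared numbers pair the libraries. Same-numbered libraries deviated with r = 0.05, 0.11, 0.16 and 0.01, and 1 of 4 matched its own number best. With 4 libraries a group, these values cannot exclude a weak pairing. Among 569 values of vessel genes without a call, 82 had the other sign with neither side passing, and 7, all Kdr, passed. Myl1, a muscle marker, had 0.0852 with muscle markers as a covariate, against -2.70 without, a covariate built from such markers. Low counts limit Cnn1.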
